A study of Rattus norvegicus with 4 samples.

Results

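The nuclear-encoded subunits of the mitochondrial respiratory chain and of ATP synthase were followed in pancreatic islets of rat pups after growth restriction in the womb. The genes were taken by name from the array annotation: every gene whose symbol starts with Nduf followed by a, b, c, s or v and a digit, the 4 Sdh genes, Uqcr, Cox4 to Cox8 and Atp5 names, Cycs and Cyc1. This gave 86 of the 26456 gene names and unnamed probes on the array, measured by 106 of its 30367 probes. They comprised 37 genes of complex I, 4 of complex II, 8 of complex III, 15 of complex IV, 16 of complex V (ATP synthase), the carrier cytochrome c (Cycs), Ndufa4, and 4 genes whose names match the pattern without being core subunits (Cox4nb, Cox7a2l, Atp5s and Atp5sl).

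The 4 IUGR (intrauterine growth restriction) samples were islets taken on postnatal day 14 from Sprague Dawley pups whose mothers had both uterine arteries ligated at embryonic day 18. The 4 control samples were islets of the same age and strain after sham surgery of the mother. Each of 4 two-colour arrays on 1 slide held 1 IUGR and 1 control sample. Array 1 held IUGR replicate 2 and control replicate 1, array 2 held IUGR replicate 1 and control replicate 2, array 3 held IUGR replicate 4 and control replicate 3, and array 4 held IUGR replicate 3 and control replicate 4. IUGR was in Cy5 on arrays 1 and 2 and in Cy3 on arrays 3 and 4. The labels give neither sex, litter nor the number of animals per sample, so the p-values measure the spread between these samples only, which may be technical in part. Values are log2 ratios of IUGR over control, where 0 means equal signal and a negative ratio means less signal in IUGR.

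Complexes I to IV pass electrons from NADH and succinate to oxygen and pump protons across the inner mitochondrial membrane, except for complex II, which feeds electrons in without pumping. Complex V lets the protons flow back and makes ATP. In beta cells the ATP so formed closes the KATP channels, which starts insulin secretion. The nucleus encodes most subunits, and the mitochondrial genome encodes a small set of core subunits, which were not analysed here.

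Among these genes, the pair of core proteins of complex III, Uqcrc1 and Uqcrc2, pointed in opposite directions on every array, and Atp5b, the catalytic beta subunit of ATP synthase, had the highest ratio of all members. The 60-base probes behind these 3 ratios are shown, with positions on the rat assembly rn4 as the scanner files give them, because the ratios below rest on 1 probe each.
Uqcrc1: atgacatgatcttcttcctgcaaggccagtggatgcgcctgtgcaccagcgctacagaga
Uqcrc2: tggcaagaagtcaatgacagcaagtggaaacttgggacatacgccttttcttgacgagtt
Atp5b: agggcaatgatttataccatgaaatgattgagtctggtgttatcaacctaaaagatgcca
The Uqcrc1 probe lies at chr8:113965183-113965352, where its 60 bases span 170 bases of the assembly. The Uqcrc2 probe lies at chr1:179489883-179489942 and the Atp5b probe at chr7:1378451-1378510, each without a break. All 3 are on the plus strand. Their GC content is 55%, 45% and 36.7%.

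Array 1 differed from the others in the brightness of its channels. Its IUGR channel was brighter than its control channel, by a log2 ratio of median signals of 1.68, whereas the IUGR channel was dimmer on arrays 2, 3 and 4, at -1.58, -2.42 and -1.55. Across the 85 tested members, which are not independent replicates and share the arrays' normalization, Pearson's r between array 1 and arrays 2, 3 and 4 came to 0.37, -0.21 and -0.49. Between arrays 2 and 3 it was 0.58, between arrays 2 and 4 it was 0.23, and between arrays 3 and 4 it was 0.72. The dye effect is still in these ratios, with 1 sign on arrays 1 and 2 and the opposite sign on arrays 3 and 4. Its part in r was not tested. In the islet check, 7 of 8 beta cell markers were tested and had mean ratios above 0 (median 0.30), but only Slc2a2 was above 0 on every array, and the hormone genes Ins1, Ins2 and Iapp were brighter in Cy5 on every array (Ins2 at 1.26, 1.72, -1.03 and -0.79). The alpha, delta and PP cell markers Gcg, Sst and Ppy had mean ratios below 0 (median -0.13). Only Sst was below 0 on every array, and Gcg was brighter in Cy5 on every array. All 6 of 6 tested acinar markers had mean ratios above 0 (median 0.38), but none was above 0 on every array. Their array medians were 0.47, 0.17, 1.41 and -0.13. In islet RNA, a change in the share of a cell type and in its RNA per cell cannot be told apart.

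No member differed between IUGR and control after correction for all genes. By limma with a dye term, 0 of 85 tested members had a Benjamini-Hochberg adjusted p under 0.05, and so did 0% of the 20012 genes tested. At an unadjusted limma p under 0.05, 3 members were higher in IUGR (3.53%, against 7.13% of all genes tested) and 2 were lower (2.35%, against 6.55% of all genes). Without array 1, 17 members (20%) and 31.0% of all genes were under 0.05, and without arrays 2, 3 and 4 it was 2 members (2.35%, against 4.67% of all genes), 1 member (1.18%, against 2.31%) and 3 members (3.53%, against 10.6%). Of the 86 names only Cox8c, a testis isoform, did not pass the filter on dim probes, and each of the 85 tested members was well above background in all 8 samples.

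The size of the ratios was ordinary for this array. The median over the 85 members was 0.06, with 54 above and 31 below 0, against a median of 0.01 over all genes tested. Without array 2 the members' median was 0.036 and without array 3 it was 0.023. The median size of a member's ratio, whatever its sign, was 0.123, against 0.136 over all genes, and 3 members (3.53%) differed by more than 0.5, against 5.94% of all genes. The ratio was above 0 on all 4 arrays for 10 members (11.8%, against 11% of all genes) and below 0 on all 4 arrays for 5 members (5.88%, against 9.68%). The members' median was 0.11, 0.22, 0.07 and -0.08 on arrays 1 to 4, and 62, 60, 49 and 28 of 85 members were above 0 on them. Arrays 1, 2 and 3 had medians above 0 and array 4 below.

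**Figure D1:**
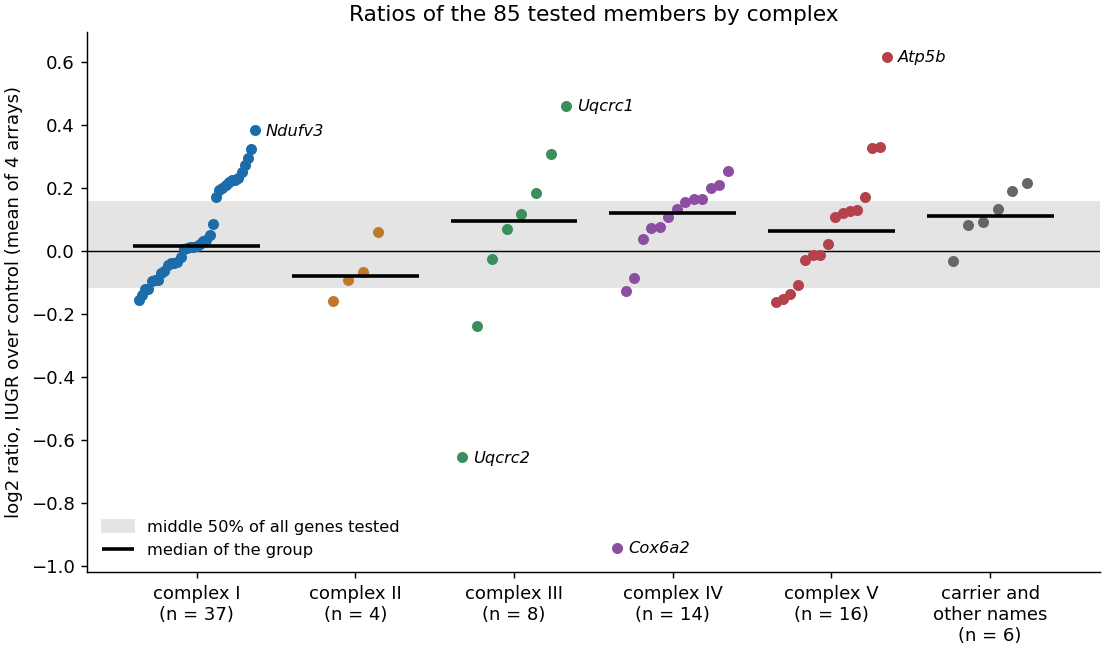
Each point is 1 tested member, its log2 ratio of IUGR over control averaged over 4 arrays, grouped by complex. Black lines are group medians, and the grey band holds the middle 50% of all genes tested, from -0.11 to 0.16. Group medians lie between -0.08 and 0.12, and the 5 named genes are those with an unadjusted limma p under 0.05.

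The complexes did not separate from one another beyond the spread between arrays. The median ratio was 0.02 for complex I, -0.08 for complex II, 0.09 for complex III, 0.12 for complex IV and 0.06 for complex V. The SD of the 4 array medians was 0.15, 0.16, 0.14, 0.22 and 0.15 for complexes I to V, larger than each of these medians. This SD describes single arrays, with the dye difference in it, and is not the error of a ratio averaged over 4 arrays. Of the 10 differences between a pair of complexes, 9 had mixed signs over the arrays. The exception was complex II minus complex V, at -0.08, -0.61, -0.08 and -0.00094 on arrays 1 to 4, which averaged -0.19 with an SD of 0.28. Array 2 made up most of it, and the smallest two-sided p that an exact sign test over 4 arrays allows is 0.125. All medians were open to the normalization: when each array was centred on its median in place of loess, the 5 complexes had medians of -0.34, -0.43, -0.22, -0.23 and -0.32, while all genes had -0.05. Complexes I, III, IV and V thus changed sign with the normalization, and complex II stayed below 0.

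**Figure D2:**
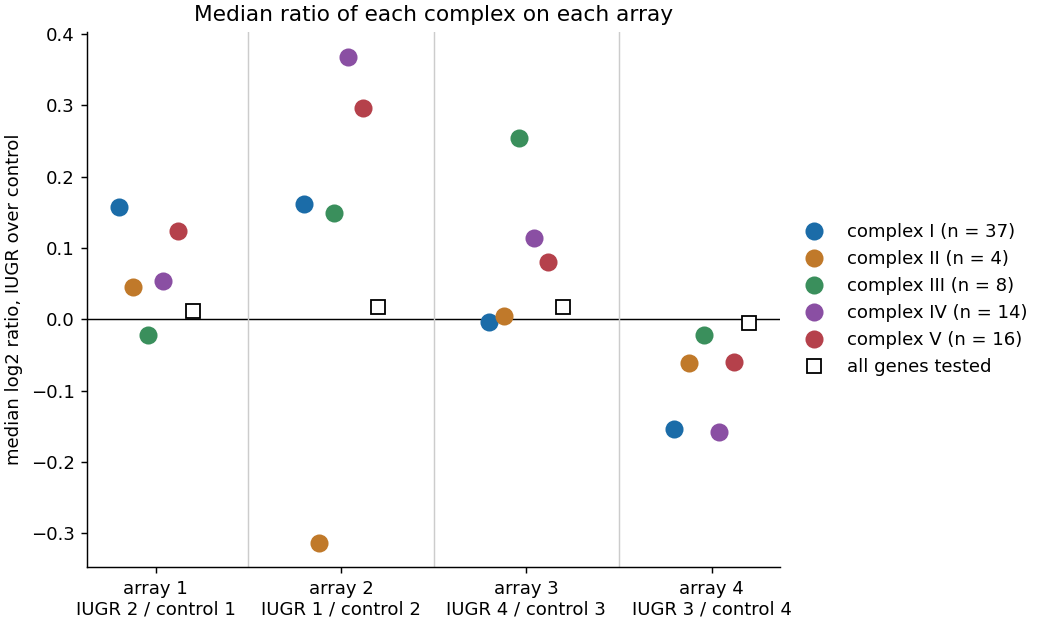
Median log2 ratio of IUGR over control of each complex (filled circles) and of all genes tested (open squares) on each of the 4 arrays, with the IUGR and control replicates of the array named under it. Each complex changes side of 0 between arrays, and array 4 holds all 5 medians below 0.

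Complex I, the NADH dehydrogenase, had 37 tested genes, 23 above and 14 below 0, with ratios from -0.16 to 0.38. The 7 nuclear-encoded core subunits, among them those that bind the flavin and the iron-sulphur clusters, had a median of -0.03, with 3 above and 4 below 0. Ndufv1, which carries the flavin and binds NADH, had ratios of -0.29, -0.06, 0.27 and 0.20 on arrays 1 to 4 (0.03 ± 0.08, moderated SE). It was brighter in the Cy3 channel on every array, whichever group was in it. Ndufs1, the largest iron-sulphur subunit, had 0.24, -0.10, -0.33 and -0.36 (-0.14 ± 0.09). Only array 1 was above 0. Ndufv2, the flavoprotein partner of Ndufv1, was the lowest of complex I at -0.01, -0.28, -0.09 and -0.25 (-0.16 ± 0.09, adjusted p = 0.378). It lay below 0 on every array, and its 4 IUGR samples lay below its 4 control samples. The members with that order were 1 of 85 (1.18%), against 1.61% of all genes tested.

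Accessory subunits of complex I surround the core, and many are needed for its assembly or stability. The 30 genes counted here, the copies Ndufa10l1 and Ndufb4l1 among them, had a median of 0.02, with 20 above and 10 below 0. Ndufv3, an accessory subunit of the NADH-binding arm, was the highest. Its normalized log2 intensity was 14.83, 14.51, 14.36 and 14.31 in IUGR replicates 1 to 4, against 14.29, 13.97, 14.00 and 14.21 in control replicates 1 to 4. The groups did not overlap, and the lowest IUGR sample was close to the highest control sample. All 4 IUGR samples lay above all 4 control samples for 3 members (3.53%, against 1.37% of all genes tested), all of complex I: Ndufv3, Ndufs5 and Ndufb3, the other two named here after their values were seen. For Ndufs5 this rested on its brightest probe, and its other probe had a mean ratio of -0.03. The Ndufv3 ratio was 0.22, 0.86, 0.31 and 0.15 on arrays 1 to 4, or 0.38 ± 0.13, with a limma adjusted p of 0.339. It rested on the probe at chr20:9960206-9960265. A probe just before it, at chr20:9960098-9960157, had a mean ratio of 0.08, and one at chr20:9957258-9957317 had 0.10, both with 2 arrays above and 2 below 0. The mean over the 3 probes was 0.19. For the brightest probe the fitted ratio was 0.22 without array 2 and 0.02 under median centring.

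Complex II, succinate dehydrogenase, joins the TCA cycle to the chain. Its 4 genes had mean ratios from -0.16 to 0.06. Sdha, the flavoprotein that oxidises succinate, had 0.04, -0.24, -0.02 and -0.05 on arrays 1 to 4 (-0.07 ± 0.09), and Sdhb, the iron-sulphur subunit, had 0.16, 0.13, 0.03 and -0.07 (0.06 ± 0.08). The membrane anchors Sdhc and Sdhd had their lowest ratio on array 2, at -0.38 and -0.42. Sdhc was 0.05, -0.19 and -0.10 on arrays 1, 3 and 4, for a mean of -0.16 ± 0.10, and Sdhd was -0.15, 0.18 and 0.03, for a mean of -0.09 ± 0.09. Neither anchor kept its sign over the arrays, and the smallest adjusted p of the 4 genes was 0.418.

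In complex III, the cytochrome bc1 complex, the pair of core proteins on the matrix side, Uqcrc1 and Uqcrc2, had ratios of opposite sign. Uqcrc2 had normalized log2 intensities of 11.47, 11.95, 12.13 and 12.01 in IUGR replicates 1 to 4, against 12.08, 12.79, 12.69 and 12.62 in control replicates 1 to 4. The groups overlapped only through control replicate 1, the sample on array 1. The ratios were -0.13, -1.31, -0.68 and -0.49 on arrays 1 to 4, and the fit gave -0.66 ± 0.21 with a limma adjusted p of 0.339. Uqcrc1 had 12.23, 12.25, 11.84 and 12.19 in IUGR replicates 1 to 4, against 12.18, 11.34, 11.53 and 11.60 in control replicates 1 to 4. Again control replicate 1 lay among the IUGR samples, and the other 3 control samples lay below all of them. The ratios were 0.07, 0.89, 0.66 and 0.23, with a mean of 0.46 ± 0.17 and a limma adjusted p of 0.339.

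The difference of the pair, Uqcrc1 minus Uqcrc2 in log2 ratio, was 0.20, 2.20, 1.35 and 0.72 on arrays 1 to 4, with a mean of 1.12 and an SD of 0.86. It was above 0 on all 4 arrays, smallest on array 1 and largest on array 2. The pair was picked out after its values were seen, so the difference is given without a test. Within an array it does not depend on centring, although loess acts on each probe by its brightness. Under median centring Uqcrc1 had 0.12 and Uqcrc2 -1.02. Without array 2 the fit gave 0.26 and -0.36.

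Cyc1, the cytochrome c1 that hands electrons to cytochrome c, had -0.30, 0.26, 0.75 and 0.53 on arrays 1 to 4 (0.31 ± 0.12, adjusted p = 0.339). Uqcrfs1, the Rieske iron-sulphur protein, had 0.27, -0.29, -0.66 and -0.27 (-0.24 ± 0.13, adjusted p = 0.371). In both, array 1 had the opposite sign to the other three. With the brightness of the channels as a covariate in place of dye, Cyc1 was 0.08. The carrier Cycs had 0.04, 0.22, 0.52 and -0.01 (0.19 ± 0.12) by its brightest probe, at chr4:78825928-78825987. Its other probe, at chr4:78826694-78826753, had a mean of -0.14, so the sign of Cycs depended on the probe.

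**Figure D3:**
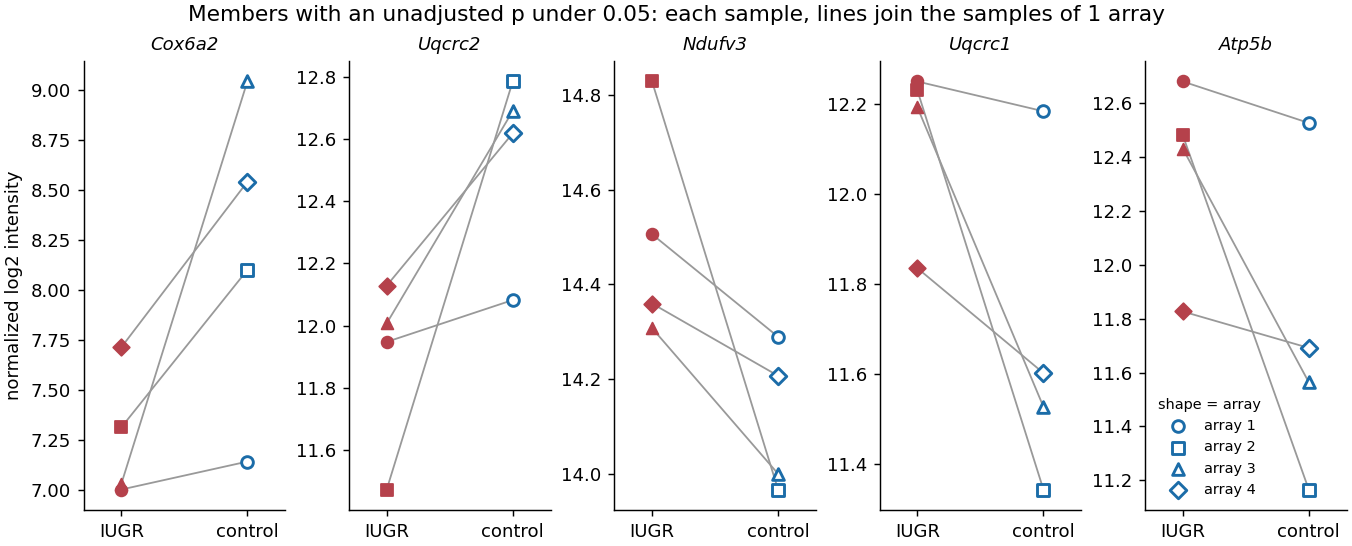
Normalized log2 intensity of the 5 members with an unadjusted limma p under 0.05, in 4 IUGR samples (left, filled) and 4 control samples (right, open). Lines join the samples of 1 array, and the vertical scale differs between genes. Cox6a2 and Uqcrc2 slope upward to control and the other three downward on every array, least on array 1 for Cox6a2, Uqcrc2 and Uqcrc1 and on array 4 for Ndufv3 and Atp5b.

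Complex IV, cytochrome c oxidase, has tissue isoforms for several of its subunits. Of its 14 tested genes 11 had a ratio above 0 and 3 below. One of them, Cox6c1, is annotated as a non-coding RNA and named Cox6c-ps1 in RefSeq, and without it 10 were above and 3 below 0 (median 0.11). The lowest of all members was Cox6a2, the heart and skeletal muscle isoform of subunit 6A, whose probe lies at chr1:187464580-187464639. It had normalized log2 intensities of 7.31, 7.00, 7.71 and 7.03 in IUGR replicates 1 to 4, against 7.14, 8.10, 9.04 and 8.54 in control replicates 1 to 4. Control replicate 1 lay among the IUGR samples and the other 3 control samples lay above them. The ratios were -0.14, -0.79, -2.01 and -0.83, with a mean of -0.94 ± 0.23 and a limma adjusted p of 0.339. The value moved with background handling: it was -1.62 with Agilent's processed signals and -0.50 with outlying local backgrounds kept as measured.

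Markers of other cell types had ratios on both sides of 0. Of 8 skeletal and heart muscle markers 7 were tested. Myh6 passed the filter through the control samples alone, where it is higher, and the other 6 had mean ratios below 0, with a median of -0.10. The 7 had array medians of -0.07, -0.09, -0.36 and -0.20, and their summed log2 level was 10.5 to 10.8 in IUGR samples and 10.7 to 11.0 in control samples. Creatine kinase Ckm, named after its value was seen, was the lowest of them at -0.48 ± 0.08 and was below 0 on all 4 arrays. Actc1, Tnnc1, Tnnc2, Acta1 and Mb had mean ratios from -0.16 to -0.02, and none of these kept its sign over the arrays. Smooth muscle and pericyte markers were below 0 in 5 of 6 (median -0.72). Their array medians were -1.31, -0.79, 0.08 and -0.59. Their summed log2 level was 13.3 to 14.5 in IUGR samples and 14.3 to 14.8 in control samples. Of 4 T and B cell markers, Cd3e passed the filter through the control samples alone, and the other 3 were below 0 (median -1.04). The 4 had array medians of 0.03, -0.34, -1.73 and -1.11, and summed log2 levels of 9.27 to 10.2 in IUGR samples and 9.25 to 11.9 in control samples. Duct markers had a median of -0.54. Among them Sox9 passed the filter through the control samples alone, and without it the median was -0.64. Schwann cell markers had 1 of 3 above 0 (median -0.24). Medians lay above 0 for macrophage (0.62), red cell (0.62), adipocyte (0.46), acinar (0.38) and endothelium (0.15) markers. The part of any of these cell types in the Cox6a2 ratio was not tested. The muscle isoform Cox8b had 1.28, 0.35, -0.95 and -0.39 (0.07 ± 0.19), which is more signal in Cy5 than in Cy3 on every array.

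The widely expressed counterparts had small ratios. Cox6a1 had 0.03, 0.40, 0.23 and -0.03 on arrays 1 to 4 (0.16 ± 0.10), so that Cox6a1 minus Cox6a2 was above 0 on all 4 arrays, at 0.17, 1.19, 2.24 and 0.80. Cox4i1, the common form of subunit 4, had -0.07, -0.02, -0.30 and -0.12 (-0.13 ± 0.08, adjusted p = 0.402). It was below 0 on every array by small amounts. Cox4i2, the form best known from lung and from low oxygen, had 0.08, 0.39, 0.24 and -0.05 (0.17 ± 0.10). Cox8a had -0.12, 0.35, 0.03 and 0.04 (0.08 ± 0.11), and Cox6b2, the testis isoform of subunit 6B, had -0.14, 0.26, 0.45 and 0.10 (0.17 ± 0.11). None of these 3 kept its sign over the arrays. Cox7a2, the common form of subunit 7A, was the highest of complex IV at 0.08, 0.50, 0.34 and 0.11 (0.26 ± 0.11, adjusted p = 0.339), above 0 on every array. Cox4i2, Cox6a1, Cox6b2, Cox7a2 and Cox8a all had negative ratios under median centring. Ndufa4, named for complex I but a subunit of complex IV, had 0.10, 0.02, -0.16 and -0.07 (-0.03 ± 0.08). Cox6b1, Cox7a1 and Ndufa4l2 were not analysed here.

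**Figure D4:**
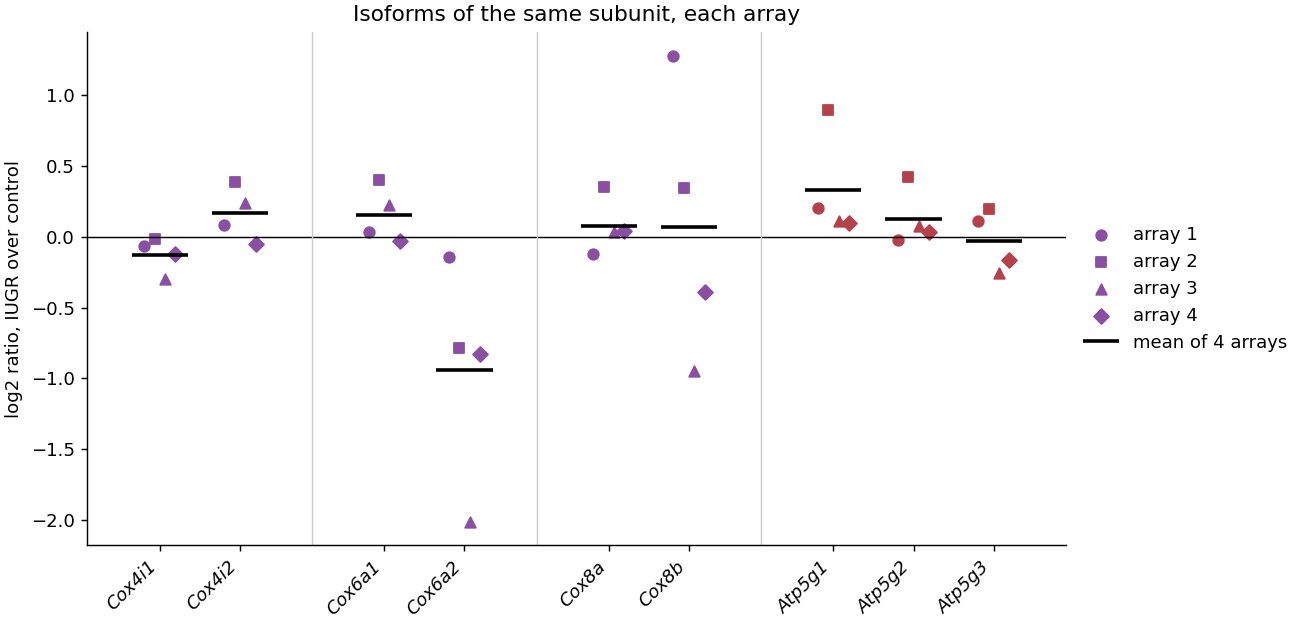
Log2 ratio of IUGR over control on each array for isoforms of subunits 4, 6A and 8 of complex IV (purple) and of subunit c of ATP synthase (red). Black lines are means of 4 arrays. Cox6a2 reaches -2.01 on array 3, Cox8b runs from 1.28 to -0.95, and the remaining genes stay between -0.30 and 0.90.

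ATP synthase had 16 tested genes, 9 above and 7 below 0, with ratios from -0.16 to 0.62. Its F1 head makes ATP on the catalytic beta subunits, Atp5b, which alternate with the alpha subunits, Atp5a1. Atp5b had normalized log2 intensities of 12.48, 12.68, 11.83 and 12.43 in IUGR replicates 1 to 4, against 12.53, 11.17, 11.56 and 11.69 in control replicates 1 to 4. Control replicate 1 was the second highest of all 8 samples, and the other 3 control samples lay below all IUGR samples. The ratios were 0.15, 1.31, 0.87 and 0.14, or 0.62 ± 0.23 with a limma adjusted p of 0.339. Atp5a1 had -0.21, -0.17, 0.15 and 0.18 (-0.01 ± 0.07), more signal in Cy3 on every array. Atp5b exceeded Atp5a1 on arrays 1 to 3, by 0.36, 1.48 and 0.71, and not on array 4, at -0.05. The fitted Atp5b ratio was 0.33 without array 2 and 0.29 under median centring.

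The 5 F1 genes had a median of -0.01, with 2 above and 3 below 0, and those other than Atp5b had ratios from -0.15 (Atp5c1, the gamma subunit) to 0.12 (Atp5d, the delta subunit). The ring of subunit c, which turns as protons pass, is encoded by 3 genes whose mature proteins are identical. Atp5g1 had 0.21, 0.90, 0.11 and 0.10 on arrays 1 to 4 (0.33 ± 0.13, adjusted p = 0.339), Atp5g2 had -0.02, 0.42, 0.07 and 0.03 (0.13 ± 0.10), and Atp5g3 had 0.11, 0.19, -0.26 and -0.16 (-0.03 ± 0.08). Array 2 gave the highest ratio of each, and median centring turned Atp5g1 to -0.04. The 8 stalk and membrane subunits had a median of 0.06, with 5 above and 3 below 0, from Atp5h, subunit d of the stator, at -0.16 ± 0.10 to Atp5j2, subunit f of the membrane part, at 0.33 ± 0.15.

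The median of the beta cell markers was highest on array 2. The array medians were 0.20, 1.06, 0.39 and 0.23, and 5 of 7 markers were highest on array 2 (Mafa was on array 3 and Nkx6-1 on array 4). Some of the higher members, Ndufv3, Uqcrc1, Atp5b and Atp5g1, also had their highest ratio on array 2. Others had it on array 3, among them Cyc1 (0.75), Ndufb3 (0.42) and, by its brightest probe, Ndufs5 (0.34). The summed log2 level of the 7 tested beta cell markers ran from 18.4 to 19.9 in IUGR samples and from 18.4 to 19.5 in control samples. The part of beta cell content in these ratios was not tested.

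Some members followed the dye and not the group. The signal was higher in Cy5 than in Cy3 on all 4 arrays for 15 members (17.6%, against 8.93% of all genes tested) and higher in Cy3 for 5 members (5.88%, against 7.26%). The median dye effect was 0.09 for the members and 0.01 for all genes. Examples are Ndufs6, with 0.26, 0.18, -0.43 and -0.38, and Atp5e, the epsilon subunit, with 0.26, 0.28, -0.51 and -0.46, both named after their values were seen. The balanced swap takes such an effect out of the mean ratio, but it enlarges the spread between arrays. Of the 18 genes with more than 1 probe, 13 had probes of the same sign, and Atp5g3, Cycs, Ndufs4, Ndufs5 and Uqcrb did not. The widest gap between probes of a gene was 0.33, for Cycs. Some genes are named as copies of another member. By mean ratio, Ndufb4l1 had 0.17 and Ndufb4 0.20, and Atp5hl1 had -0.14 and Atp5h -0.16. Ndufa10l1 had -0.04 and Ndufa10 0.02, and Cox6c1 had 0.21 and Cox6c 0.11. Each such name was counted as a gene of its complex. The Ndufa10 and Ndufa10l1 probes lie close together on the minus strand, at chr9:91654891-91654950 and chr9:91655487-91655546, and so may read the same locus. Their ratios differed by array: Ndufa10 had 0.02, 0.05, -0.21 and 0.24, and Ndufa10l1 had -0.08, -0.37, 0.13 and 0.18. No pair of member probes matched at 45 or more of 60 bases, yet transcripts of such copies may still share signal.

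**Figure D5:**
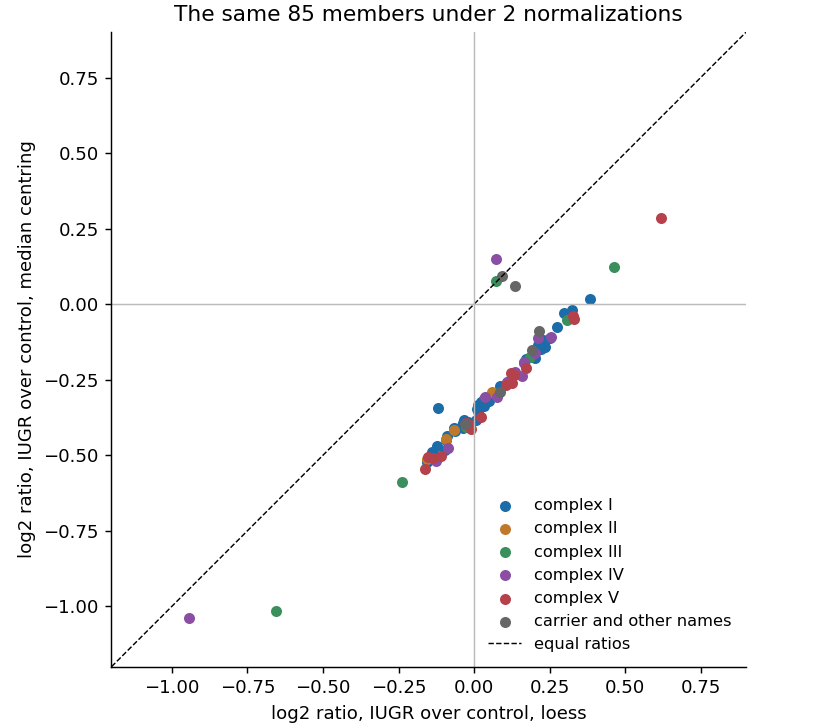
Log2 ratio of IUGR over control of each of the 85 tested members with loess (horizontal) and with median centring (vertical), and a dashed line of equal ratios. Most points lie below the line, and the members' median is 0.06 with loess and -0.31 with median centring.

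The genes that serve the chain had ratios of similar size, and none passed the adjusted threshold in limma. Of 26 tested genes listed as assembly factors 18 were above and 8 below 0 (median 0.05). The list holds Ndufab1, a complex I subunit outside the name pattern. At an unadjusted limma p under 0.05, 1 was higher, Bcs1l, which places the Rieske protein into complex III. It had 0.29, 0.38, 0.19 and 0.04 on arrays 1 to 4 (0.23 ± 0.08). Of 18 pyruvate and TCA cycle enzymes 10 were above and 8 below 0 (median 0.06), Pdhx having passed the filter through the control samples alone, with 1 higher at an unadjusted p under 0.05, pyruvate carboxylase Pc, at 0.25, 0.53, 0.18 and 0.01 (0.24 ± 0.09) with loess and -0.10 under median centring. Carriers and other electron donors had 10 of 16 above 0 (median 0.04), with 2 higher, the citrate carrier Slc25a1 at 0.37 ± 0.12 and the outer membrane channel Vdac1 at 0.50 ± 0.19, named after its value was seen. Regulators of mitochondrial genes had 4 of 14 above 0 (median -0.06). Ppargc1a and Ppara, among those below 0, passed the filter through the control samples alone, and without them 4 of 12 were above 0 (median -0.03). In this list Ppargc1b, a coactivator of these genes, came closest to the threshold, at 0.11, 0.22, 0.18 and 0.28 (0.20 ± 0.08, adjusted p = 0.339).

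The promoters of the members were read from RefSeq (assembly GRCr8), in windows from 250 bases before to 50 after the annotated start, for the 70 of 86 names that matched. Nuclear respiratory factor 1 (NRF1) and factors of the ETS family, GABP among them, are known to bind promoters of many respiratory genes. The core of the NRF1 motif, GCGCANGCG on either strand, was in 18 of the 70 member promoters (25.7%), against 6.26% of 27457 promoters. The member promoters were also richer in GC, with a median of 57.2% against 52.3% over all promoters, and the GC box GGGCGG was in 44.3% of them against 34.9%. The part of base composition in the motif counts was not tested. The NRF1 core was in 9 of 33 promoters of complex I, 1 of 4 of complex II, 1 of 5 of complex III, 0 of 11 of complex IV and 5 of 12 of complex V. The ETS motif CCGGAAGT was in 8 (11.4%, against 4.01%) and the YY1 motif AAGATGGCG in 9 (12.9%, against 1.93%), 7 of them in complex I. Matches of these 3 motifs overlapped one another in 0 cases. Members with the NRF1 core had a median log2 ratio of 0.11 and members without it 0.03. The gap of the medians, with minus without the core, was -0.07, 0.09, 0.16 and 0.07 on arrays 1 to 4, of mixed sign. Because Uqcrc1 and Uqcrc2 had opposite ratios, the 150 bases before their annotated starts are shown, with the NRF1 core in capitals.
Uqcrc1: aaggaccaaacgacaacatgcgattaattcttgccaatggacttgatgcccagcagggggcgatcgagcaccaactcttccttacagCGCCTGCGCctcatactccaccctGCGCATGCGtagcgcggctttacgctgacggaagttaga
Uqcrc2: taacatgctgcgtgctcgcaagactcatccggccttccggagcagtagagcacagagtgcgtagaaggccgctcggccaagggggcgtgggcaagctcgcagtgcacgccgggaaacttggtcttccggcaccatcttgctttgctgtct
These lie at chr8:118468073-118468222 and chr1:184599090-184599239, both on the plus strand. The Uqcrc1 stretch holds 2 matches, beginning 63 and 39 bases before the start, the first on the minus strand, and the Uqcrc2 stretch holds 0. A match is a run of letters and not a measured binding site, and 0 matches means only that these letters are not in the window. Whether the core bears on the ratio of either gene was not tested.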

How the data were processed

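Per the file headers, scanner values came from Agilent Feature Extraction. The deposited scanner files hold intensity values (mean signals, median local backgrounds, processed signals) and a log10 ratio of processed Cy5 over Cy3, which equalled that of the deposited processed signals. The deposited value table holds log2 ratios of Cy5 over Cy3, a direction found by comparison with the scanner values (r from 0.986 to 0.998 with loess ratios without background correction, array medians from -0.028 to 0.008); the normalization behind it is not given in the sources used here. Limma is named in the submitters' processing notes.

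Mean signals were corrected with normexp (offset 50) and normalized by loess within arrays in R 4.3.3 with limma 3.58.1, control spots and feature outliers at weight 0. Outlying local backgrounds were set to the array median, feature outliers were left out, and spots were averaged by probe. The brightest probe stood for a gene. Tested were genes with a value on every one of the 4 arrays and a signal well above background in at least 2 of 4 IUGR or 2 of 4 control channels. For the normalized log2 intensities of single samples, the mean intensities were first quantile normalized between arrays. The intensity of a sample was then rebuilt from the array's mean and ratio. Comparisons of samples on different arrays rest on this step. The limma fit held IUGR over control and dye, with 2 residual and 2.75 prior degrees of freedom, and adjusted p-values over 20012 genes by Benjamini-Hochberg. The moderated SE leaves out the dye difference and can lie below the spread between arrays. The number of arrays limits the precision.

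The members, the gene lists and the choice of alternatives were made with earlier results of these data known. Named genes were those at an unadjusted p under 0.05, the highest and lowest of each complex, a fixed set of core subunits and isoforms, and the gene with the smallest p of each other list. The values of 1 gene of the fixed set are not reported here. By accession 91 of 106 probes matched RefSeq, 10 more by symbol. Exon and UTR annotation on rn4 was not used here. Same-numbered IUGR and control samples lie on different arrays, and their deviations correlated at -0.28 (numbers 1 and 2) and -0.21 (numbers 3 and 4), so the numbers were not taken as pairs.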

Additional observations from a re-analysis of the deposited data

Results flagged for a closer look

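Among the 29 named members examined for a single outlying array, 1 stood out. The Atp5g1 log2 ratio of IUGR over control was 0.90 on array 2, against 0.21, 0.11 and 0.10 on arrays 1, 3 and 4, and its gap to the next array was 0.87 of the whole range, above Dixon's critical value for 4 values. Chance alone marks about 1 in 20 such sets. Without array 2 the fit, which kept the dye term, gave 0.16.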

How the results depend on the processing

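No member passed an adjusted limma p of 0.05 under any other setting or with any array left out. Median centring in place of loess gave 15 calls over all genes, none a member, 0 members higher at an unadjusted p under 0.05, and medians of -0.34 (I), -0.43 (II), -0.22 (III), -0.23 (IV), -0.32 (V) and -0.31 (all members). Among the named genes it turned Sdhb to -0.29, Cox7a2 to -0.11, Ndufv1 to -0.34, Cyc1 to -0.053, Cycs to -0.15 and Cox4i2 to -0.19. It also turned Cox6a1 to -0.24, Cox6b2 to -0.19, Cox8a to -0.31, Atp5g1 to -0.041, Atp5g2 to -0.26 and Pc to -0.10. The cause was not tested. Members higher at an unadjusted p under 0.05 numbered 0 with Agilent's processed signals (1 lower) and with offset 0, 1 with channel brightness as a covariate, and 5 without the dye term or with array weights. In both directions together, 3.53% of members and 5.41% of all genes were under 0.05 with channel brightness, 8.24% and 14.4% without the dye term, and 8.24% and 14.5% with array weights. The members' median was 0.033 with outlying backgrounds left out. Of the named genes, channel brightness turned Ndufv1 to -0.090, Ndufa4 to 0.021 and Atp5g3 to 0.036. Leaving out 1 array gave 0 to 13 members higher and 1 to 4 lower. The 13 and 4 came without array 1, where 31.0% of all genes and 20% of members were under 0.05. Among the named members, leaving out 1 array turned 4, and the unnamed members were not followed in this way. In these fits, which kept the dye term, Cox8b ran from -0.16 (without array 1) to 0.31 (without array 2). Lowest and highest without arrays 1 or 2, Ndufv1 ran from -0.026 to 0.089, Sdha from -0.14 to 0.0053 and Cox8a from -0.042 to 0.19. The replicate block changed no call, with a smallest adjusted p of 0.280 among members, but it drops the array from the model. The deposited ratios changed no call (members' median 0.06). Cox6a2 ran from -0.50 to -1.62 over the settings.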
